A study of Homo sapiens with 4 samples.

Results

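Genes of the hypoxia response and of glycolysis were examined in RNA sequencing of Daoy, an established human medulloblastoma cell line. The set held 36 genes, listed by name, out of 57820 gene identifiers in the deposited files. All 36 were among the 17024 genes with enough reads to be tested. They were compared in 6 role groups: 4 genes of oxygen sensing, 9 targets of hypoxia-inducible factor (HIF) without a role in glycolysis, 3 transporters of glucose and lactate, 15 enzymes of the glycolytic steps, 2 PFKFB regulators of phosphofructokinase and 3 enzymes that set the fate of pyruvate. The data comprised 4 libraries of poly(A)-selected RNA. Of these 3 were labelled wild type (numbered 1 to 3) and 1 was labelled ARID1B shRNA, called the shRNA-labelled library from here on. The shRNA was carried by the lentiviral vector tet-pLKO-puro, and the cells that carried it were polyclonal populations. Per the labels, every culture was treated with doxycycline at 1 µg/ml for 72 h, which switches the hairpin on. The series design describes the controls as parental Daoy cells and cells with the empty vector, and which of the wild-type libraries is which was not given in the sources used here.

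Under normal oxygen, HIF alpha subunits (HIF1A and EPAS1, also called HIF-2 alpha) are hydroxylated by the EGLN prolyl hydroxylases, bound by the VHL ubiquitin ligase and degraded. When oxygen is short they persist, pair with ARNT and switch on genes for blood vessel growth, pH control, mitophagy and glucose use. Glycolysis breaks glucose down to pyruvate in the cytosol, and lactate dehydrogenase and pyruvate dehydrogenase compete for that pyruvate. HIF activity is set mainly by the stability of its proteins, which RNA sequencing does not measure, and many HIF targets also respond to other signals.

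The libraries differed in ways that touch every value below. Reads assigned to genes numbered 12619786 to 15390106 per wild-type library and 8792848 in the shRNA-labelled library. ARID1B, the gene the hairpin targets, measured 164, 88.0 and 72.9 CPM (the usual depth-scaled read count, here over TMM-scaled library totals) in wild-type libraries 1, 2 and 3, and 175 CPM in the shRNA-labelled library. The log2 fold change of ARID1B was 0.69 with a standard error (SE) of 0.46 (edgeR adjusted p = 0.399), so the label's lowering of ARID1B was not seen in its mRNA. Fold changes ran with the GC content of a gene's longest transcript: their median was -0.30 on the log2 scale in the lowest decile of genes by GC content and 1.32 in the highest. Of the 12 fixed markers of medulloblastoma and neural progenitors 10 reached 1 CPM in some library, with VIM the most abundant. ATOH1 was at 0 counts in every library and BARHL1 did not exceed 0.114 CPM. The summed level of these 12 markers was 2531 to 2791 CPM in wild type against 1054 CPM in the shRNA-labelled library. VIM carried that difference: the other 11 summed to 88.1 to 133 CPM in wild type against 117 CPM in the shRNA-labelled library. Of these 11, 3 stood above every wild-type library (SOX9, GLI2 and BARHL1) and 4 below (SOX2, PTCH1, OTX2 and MYCN). BARHL1 did so at 0.114 CPM against 0, a level too low for it to be among the tested genes. Over all tested genes 35.4% stood above and 37.9% below. Of the fixed lists for other cells, the 6 neuronal markers summed to 12.3 to 22.0 CPM in wild type against 17.8 CPM there, the 5 glial markers to 3.19 to 4.56 against 7.64 CPM, and the 6 blood and immune markers to 0.466 to 1.31 against 0.57 CPM, with CD3E and HBB at 0. OLIG2 carried the glial difference, at 0.0776, 0.618 and 0.586 CPM in wild type against 4.9 CPM in the shRNA-labelled library. GFAP and AQP4 lay within the wild-type range and MBP below it. The fibroblast and endothelial list, of which 6 of 7 markers were matched, summed to 3108 to 5077 CPM against 3483 CPM. Its COL1A1 and COL1A2 were abundant in all 4 libraries and CDH5 did not exceed 0.114 CPM. The part of these marker differences in the results below was not tested. In a bulk sample, fewer cells of a type and less RNA per cell cannot be told apart.

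A small number of the 36 genes passed the test, and each of those rose. These were the angiogenic factor VEGFA, the lipase inhibitor ANGPTL4, the stress-responsive gene NDRG1, the HIF alpha subunit gene EPAS1 and PFKFB3, which makes the strongest activator of phosphofructokinase. At an edgeR adjusted p below 0.05, over all tested genes, 5 of 36 were called higher, where 3.65% of all tested genes were (4.48% in either direction). Of these 5, 1 (ANGPTL4) met the filter on low counts only through the shRNA-labelled library, so a difference was built into its being tested. None was called lower, where 0.834% of all tested genes were. Limma-voom and DESeq2, which called 0.634% and 2.88% of tested genes lower, called 0 members lower, and 3 members (HIF1A, EGLN3 and LDHB) were lower at an unadjusted edgeR p below 0.05, where 9.79% of all tested genes were. At that threshold 15 members were higher, where 15.6% of all tested genes were. The shRNA arm had 1 library and no replicate, and the spread behind each p is that of the wild-type libraries, which the labels do not call separate cultures and which may differ only technically. In all, 27 of 36 members lay outside the wild-type range, 21 above it and 6 below. Over all tested genes 73.3% lay outside that range, 35.4% above and 37.9% below.

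**Figure D1:**
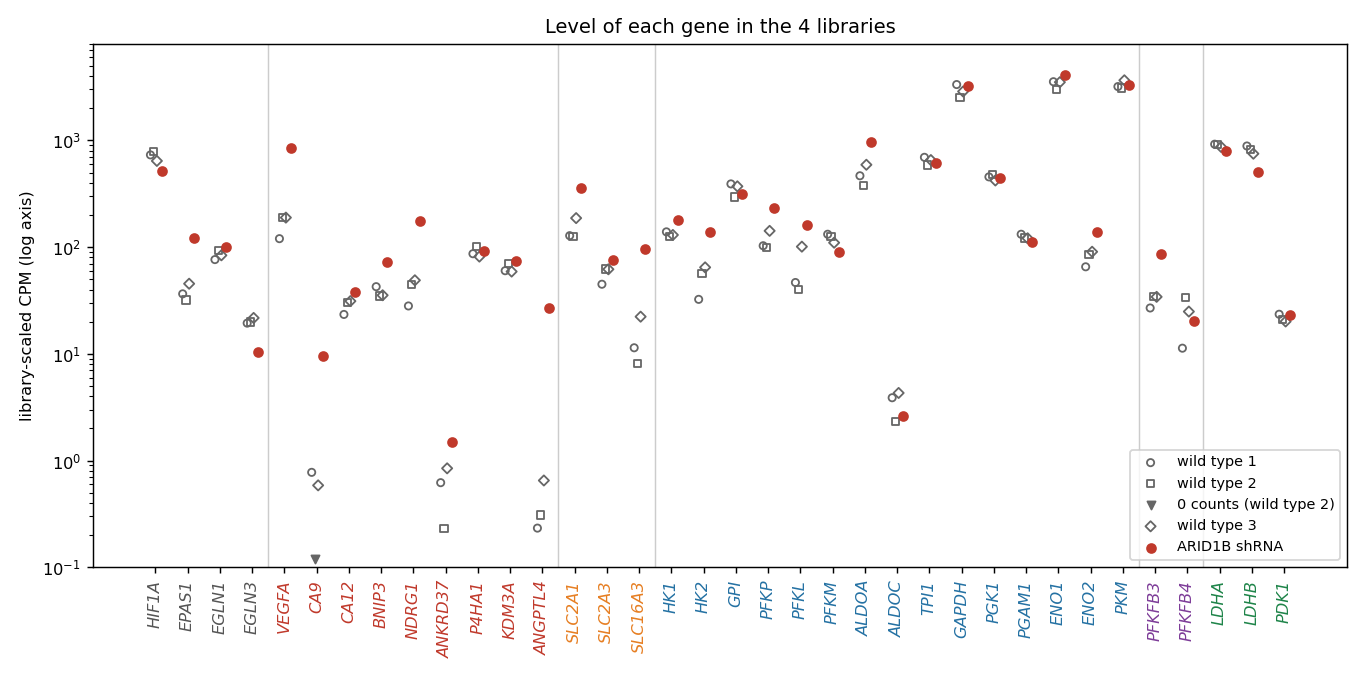
Level of each of the 36 genes, as library-scaled CPM on a log axis, in the 3 wild-type libraries (open grey symbols) and in the shRNA-labelled library (red), with gene names coloured by role group and grey lines between the groups. Red points for VEGFA, ANGPTL4, NDRG1, EPAS1 and PFKFB3 stand clear of the wild-type points, while those for P4HA1, PGK1, PKM and PDK1 fall among them; the triangle marks CA9 at 0 counts in wild-type library 2.

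The count of members called higher depended on the wild-type libraries. Without wild-type library 1 it was 9, without library 2 it was 2 and without library 3 it was 5, where 5.43%, 0.836% and 2.68% of all tested genes were called higher. When the dependence of each library on GC content and length was taken out in 1 joint fit (below, with the trend removed), 3 members (EPAS1, NDRG1 and ANGPTL4) were called higher, where 1.93% of tested genes were, and 0 lower, where 0.858% were. That removal left 328 of all tested genes higher and 146 lower, against 621 and 142 as measured. With the trend on GC content removed first and that on length second, all 5 were called higher, where 2.1% of tested genes were. With no filter on low counts 13 members were called higher and 2 lower (EGLN3 and LDHB), where 7.4% and 3.1% of genes were.

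Among the oxygen-sensing genes the HIF alpha subunits stood on opposite sides of wild type. EPAS1 (ENSG00000116016.9), whose protein acts in vessel and iron biology, measured 36.5, 31.9 and 45.4 CPM in wild-type libraries 1, 2 and 3 and 122 CPM in the shRNA-labelled library. Its shRNA value stood above all 3 wild-type values. EPAS1 rose 3.23-fold (log2 fold change 1.69, SE 0.23, edgeR adjusted p = 0.0274). With the trend removed the change was 1.53 (edgeR adjusted p = 0.0244), and its call ended when wild-type library 2 was left out (edgeR adjusted p = 0.0533). HIF1A (ENSG00000100644.12), the more widely expressed subunit, measured 731, 790 and 642 CPM in wild type against 521 CPM in the shRNA-labelled library. That value was below every wild-type library, and the log2 fold change of -0.47 (SE 0.18) did not pass (edgeR adjusted p = 0.185). HIF1A is among the genes of low GC content, and its value was -0.20 with the trend removed.

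The ratio of EPAS1 reads to HIF1A reads within a library, in which the total read number cancels, was 0.0499, 0.0404 and 0.0708 in wild type against 0.235 in the shRNA-labelled library. On the log2 scale it lay 2.17 above the mean of the wild-type libraries, whose SD was 0.41. With the trend removed that difference was 1.74 (SD 0.22). HIF1A remained the more abundant transcript in every library, both as counted and per length of the coding transcripts.

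Of the prolyl hydroxylase genes, EGLN1 lay above every wild-type library and EGLN3 below, and neither passed. EGLN1, the main oxygen sensor, measured 76.4, 92.6 and 83.8 CPM in wild type against 101 CPM in the shRNA-labelled library (log2 fold change 0.26, edgeR adjusted p = 0.41). EGLN3, a hydroxylase that is itself a HIF target, measured 19.4, 19.9 and 21.7 CPM in wild type against 10.3 CPM (95% Poisson interval 8.25 to 12.6, counting error only) in the shRNA-labelled library. The 3 wild-type values of EGLN3 were nearly level and their mean was 1.98 times the shRNA value. The log2 fold change of EGLN3 was -0.99 (SE 0.25) and did not pass (edgeR adjusted p = 0.0837), nor with the trend removed (-0.92, edgeR adjusted p = 0.0809).

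The 2 largest fold changes of the set, those of ANGPTL4 and CA9, were in HIF targets outside glycolysis. Of these 9 genes 3 rose, VEGFA, NDRG1 and ANGPTL4, where 3.65% of all tested genes were called higher, and none fell. ANGPTL4 met the filter on low counts only through the shRNA-labelled library. Above every wild-type library stood 8 of the 9, where 35.4% of all tested genes did. The median log2 fold change of the 9 was 1.35, against -0.05 over all tested genes. That median is the value of ANKRD37, a gene of few reads (SE 0.75). Over the genes with a mean count of 50 or more the group's median was 0.94. The summed level of the group was 362, 473 and 448 CPM in wild type against 1333 CPM in the shRNA-labelled library, of which VEGFA made up 842 CPM.

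VEGFA (ENSG00000112715.16), which draws new blood vessels, measured 120, 191 and 189 CPM in wild-type libraries 1, 2 and 3. Its level in the shRNA-labelled library was 842 CPM (95% Poisson interval 823 to 862). Wild-type library 1 was the lowest and the shRNA value was far above all 3. VEGFA rose 5.05-fold (log2 fold change 2.34, SE 0.27, edgeR adjusted p = 0.0242). The call ended with the trend removed in the joint fit (log2 fold change 1.95, edgeR adjusted p = 0.0518) and when wild-type library 2 or 3 was left out (edgeR adjusted p = 0.0565 and 0.059), and the log2 fold change lay between 2.15 and 2.46 when single libraries were left out. An antisense gene overlaps exons of VEGFA, and the counting is not stated to use strand.

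ANGPTL4 (ENSG00000167772.7), an inhibitor of lipoprotein lipase, was almost silent in wild type. It had 3, 4 and 10 reads there, or 0.233, 0.309 and 0.651 CPM, and 236 reads or 26.9 CPM (95% Poisson interval 23.6 to 30.6) in the shRNA-labelled library. ANGPTL4 rose 67.7-fold (log2 fold change 6.01, SE 0.45, edgeR adjusted p = 0.0149). It met the filter on low counts only through the shRNA-labelled library, so that a difference was built into its being tested. Its transcript belongs to the decile of genes with the highest GC content, in which 18.2% of genes were called higher. With the trend removed its log2 fold change was 4.83 (edgeR adjusted p = 0.0153), and it passed whichever wild-type library was left out (edgeR adjusted p of at most 0.049).

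NDRG1 (ENSG00000104419.10), induced by hypoxia and by other stresses, measured 28.1, 44.5 and 48.9 CPM in wild type against 176 CPM in the shRNA-labelled library. Library 1 was again the lowest of the wild-type libraries. NDRG1 rose 4.35-fold (log2 fold change 2.12, SE 0.30, edgeR adjusted p = 0.0318) and by 1.99 on the log2 scale with the trend removed (edgeR adjusted p = 0.042). Its call ended when wild-type library 2 or 3 was left out (edgeR adjusted p = 0.0704 and 0.06).

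The remaining 6 genes of the group did not pass. CA9, a carbonic anhydrase at the cell surface and a common marker of hypoxic tumour cells, measured 0.776, 0 and 0.586 CPM in wild type against 9.47 CPM (95% Poisson interval 7.54 to 11.7) in the shRNA-labelled library. The 3 wild-type libraries held 10, 0 and 9 CA9 reads against 83 there, and the log2 fold change of 4.34 had an SE of 0.90 (edgeR adjusted p = 0.0642). CA9 passed with the later quasi-likelihood method of edgeR (edgeR adjusted p = 0.0421), where 4.08% of tested genes were called higher. It also passed when wild-type library 1 or 2 was left out (edgeR adjusted p = 0.0358 and 0.049). BNIP3, a receptor for the removal of mitochondria, measured 42.6, 34.8 and 35.4 CPM against 72.3 CPM (log2 fold change 0.94, SE 0.20, edgeR adjusted p = 0.062). BNIP3 passed with DESeq2 (DESeq2 adjusted p = 0.0136) and when wild-type library 1 was left out (edgeR adjusted p = 0.0455). It has 42 annotated pseudogene copies, so its level is uncertain. CA9 and BNIP3 both lay above every wild-type library, as did 35.4% of all tested genes. Both passed with no filter on low counts. Neither passed with limma-voom, RLE or upper-quartile scaling, or after either trend removal. CA9 also did not pass with DESeq2 or without wild-type library 3, and its log2 fold change was 3.7 with the trend removed. The later quasi-likelihood method was chosen after seeing the data.

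CA12, another carbonic anhydrase of the cell surface, measured 23.4, 30.3 and 31.2 CPM in wild type against 37.8 CPM in the shRNA-labelled library. KDM3A, a histone demethylase that HIF induces, measured 60.1, 70.1 and 59.0 CPM against 74.1 CPM. P4HA1, which hydroxylates collagen prolines, measured 86.7, 101 and 81.5 CPM against 92.2 CPM, within the wild-type range. ANKRD37 was near the limit of detection with 8, 3, 13 and 13 reads in the 4 libraries. Their log2 fold changes ran from 0.04 for P4HA1 to 1.35 for ANKRD37, and their edgeR adjusted p from 0.309 to 0.923. P4HA1 turned to -0.08 with upper-quartile scaling, a setting that lowers the fold changes of all tested genes by 0.12 in the median. The group therefore held genes with fold changes of over 2 on the log2 scale beside established HIF targets whose values stayed close to wild type.

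**Figure D2:**
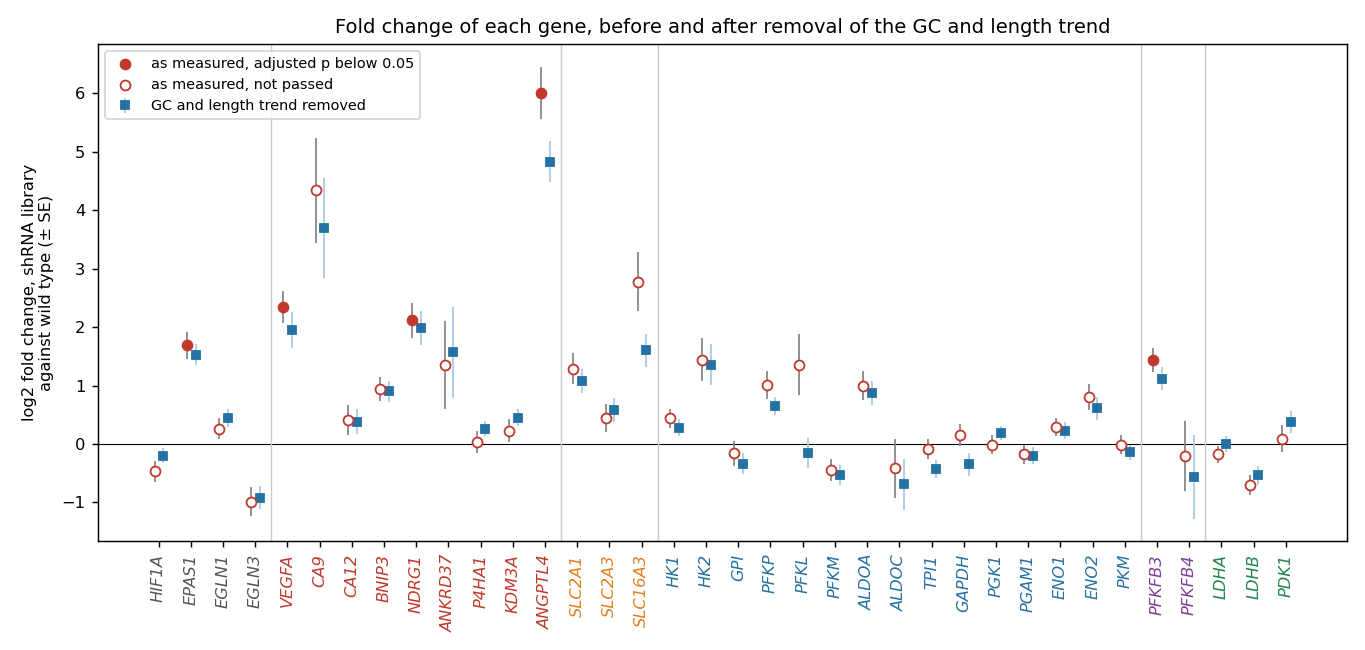
Log2 fold change of each gene with its SE, the shRNA-labelled library against the 3 libraries labelled wild type, as measured (red circles, filled where the edgeR adjusted p was below 0.05) and after removal of each library's GC and length trend (blue squares). ANGPTL4, at 6.01 as measured and 4.83 with the trend removed, is the highest, and PFKL moves from 1.36 to -0.16.

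Promoter sequences were read to show which letters of the hypoxia response element stand close to the start of genes that rose and of genes that stayed near wild type. RefSeq promoters of GRCh38.p14, each from 250 bases before to 50 bases after a start, were matched by symbol for 33 of the 36 members, with 61 entries; VEGFA, NDRG1 and SLC2A3 had no entry. The element's core was searched as ACGTG or GCGTG on both strands. A core on the other strand is printed as its reverse complement. The letters CACGTG hold the first core on each strand and count as 2 matches. The 250 bases before the start are given 5′ to 3′ on the strand of the gene, with the cores in capitals, for 3 genes that rose (ANGPTL4 at chr19:8363905-8364154, EPAS1 at chr2:46297157-46297406 and PFKFB3 at chr10:6202682-6202931, all on the plus strand) and for LDHA (chr11:18394313-18394562, plus strand) and PGK1 (chrX:78103998-78104247, plus strand), classic HIF targets of glycolysis that did not pass. Where a gene had several entries, the one with the most cores is shown.
ANGPTL4: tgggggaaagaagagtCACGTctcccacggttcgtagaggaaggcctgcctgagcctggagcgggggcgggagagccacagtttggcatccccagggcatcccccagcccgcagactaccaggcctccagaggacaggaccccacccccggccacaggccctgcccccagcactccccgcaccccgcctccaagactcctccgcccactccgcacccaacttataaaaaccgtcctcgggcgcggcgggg
EPAS1: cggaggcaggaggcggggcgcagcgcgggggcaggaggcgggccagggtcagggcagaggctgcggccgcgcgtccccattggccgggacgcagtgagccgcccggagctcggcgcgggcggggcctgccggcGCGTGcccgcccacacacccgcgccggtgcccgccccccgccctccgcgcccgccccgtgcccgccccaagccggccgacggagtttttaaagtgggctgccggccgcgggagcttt
PFKFB3: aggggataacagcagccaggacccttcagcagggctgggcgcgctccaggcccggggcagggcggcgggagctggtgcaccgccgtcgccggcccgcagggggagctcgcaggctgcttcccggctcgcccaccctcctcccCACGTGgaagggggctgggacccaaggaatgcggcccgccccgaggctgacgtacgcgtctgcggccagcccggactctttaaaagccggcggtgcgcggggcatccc
LDHA: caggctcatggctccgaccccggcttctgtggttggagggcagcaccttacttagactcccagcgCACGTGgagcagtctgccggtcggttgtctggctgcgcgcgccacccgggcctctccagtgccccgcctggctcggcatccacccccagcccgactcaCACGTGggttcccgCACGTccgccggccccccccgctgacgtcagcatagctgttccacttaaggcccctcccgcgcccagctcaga
PGK1: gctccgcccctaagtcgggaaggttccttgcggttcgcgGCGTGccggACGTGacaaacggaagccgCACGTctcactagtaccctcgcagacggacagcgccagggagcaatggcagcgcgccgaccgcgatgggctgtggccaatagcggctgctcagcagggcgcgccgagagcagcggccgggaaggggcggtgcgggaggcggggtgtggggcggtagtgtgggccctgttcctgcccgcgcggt
These stretches held 1 match in ANGPTL4, 1 in EPAS1, 2 in PFKFB3, 5 in LDHA and 3 in PGK1. A core was thus present before the start of genes that rose and of genes that did not pass. In all, 31 of the 33 matched members had an entry with a core, among them the 3 matched members that rose and 28 of the 30 that did not pass; EGLN3 and PGAM1 had none. Of the 61 entries 68.9% held a core, against 48.4% of the 35116 entries of all genes. For ACGTG alone the shares were 39.3% and 21.4%, and for GCGTG alone 41.0% and 36.5%. Entries of the same gene overlap in part, and a gene with several entries needs a core in only 1 of them. No share per gene was taken over all genes, so the 31 of 33 has no background beside it. The core TGATGCA of the element bound by C/EBP and ATF factors, searched on both strands, was found in 6.56% of the members' entries (in HK1 and TPI1) and in 2.63% of all entries. A match describes letters in this window and shows no binding.

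No transporter of glucose or lactate passed the main test. All 3 genes stood above every wild-type library, where 35.4% of all tested genes did. Their median log2 fold change was 1.29 (1.08 with the trend removed). SLC2A1, the basal glucose transporter GLUT1, measured 128, 125 and 187 CPM in wild type against 360 CPM in the shRNA-labelled library (log2 fold change 1.29, SE 0.26, edgeR adjusted p = 0.0558). SLC16A3, the lactate exporter MCT4, measured 11.4, 8.12 and 22.3 CPM against 96.5 CPM (log2 fold change 2.78, SE 0.51, edgeR adjusted p = 0.0515). Library 3 was the highest wild-type library for both genes. SLC2A3, the high-affinity glucose transporter GLUT3, measured 44.9, 62.3 and 62.0 CPM against 76.4 CPM (log2 fold change 0.44, edgeR adjusted p = 0.312).

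Of the 3 transporter genes 2, SLC2A1 and SLC16A3, were higher at an unadjusted edgeR p below 0.05, where 15.6% of all tested genes were. SLC2A1 and SLC16A3 passed with RLE scaling (edgeR adjusted p = 0.0492 and 0.0484), where 4.22% of tested genes were called higher, and with limma-voom (limma adjusted p = 0.0488 and 0.0345), where 4.61% were. Both also passed with DESeq2 (DESeq2 adjusted p = 0.00141 and 5.46e-06), where 9.20% of tested genes were called higher. Neither passed with upper-quartile scaling, over genes with a mean count of 50 or more, after either trend removal or without wild-type library 2. SLC16A3 belongs to the decile of genes with the highest GC content, where the median log2 fold change was 1.32. With the trend removed its log2 fold change was 1.60 (edgeR adjusted p = 0.0599). SLC16A3 and CSNK1D share exonic bases on opposite strands, so some of its reads are uncertain.

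None of the 15 enzymes of the glycolytic steps passed the main test. By edgeR 0 passed, by limma-voom 0 and by DESeq2 4, all higher (HK2, PFKP, PFKL and ALDOA), where DESeq2 called 9.2% of tested genes higher. At an unadjusted edgeR p below 0.05, 6 were higher and 0 lower, where 15.6% and 9.79% of all tested genes were. As measured the median of their log2 fold changes was 0.16, and it was -0.14 with the trend removed, so its sign depended on that trend. Of the 15 enzymes 7 stood above every wild-type library, 2 below and 6 within the range. Over all tested genes 35.4% stood above and 37.9% below. Together the 15 enzymes summed to 12733, 10996 and 12839 CPM in wild type against 14012 CPM in the shRNA-labelled library, or 1.30%, 1.08% and 1.28% of genic reads against 1.40%. The sum was 1.15 times the wild-type mean of 12189 ± 1035 CPM (SD, n = 3), above each wild-type library.

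**Figure D3:**
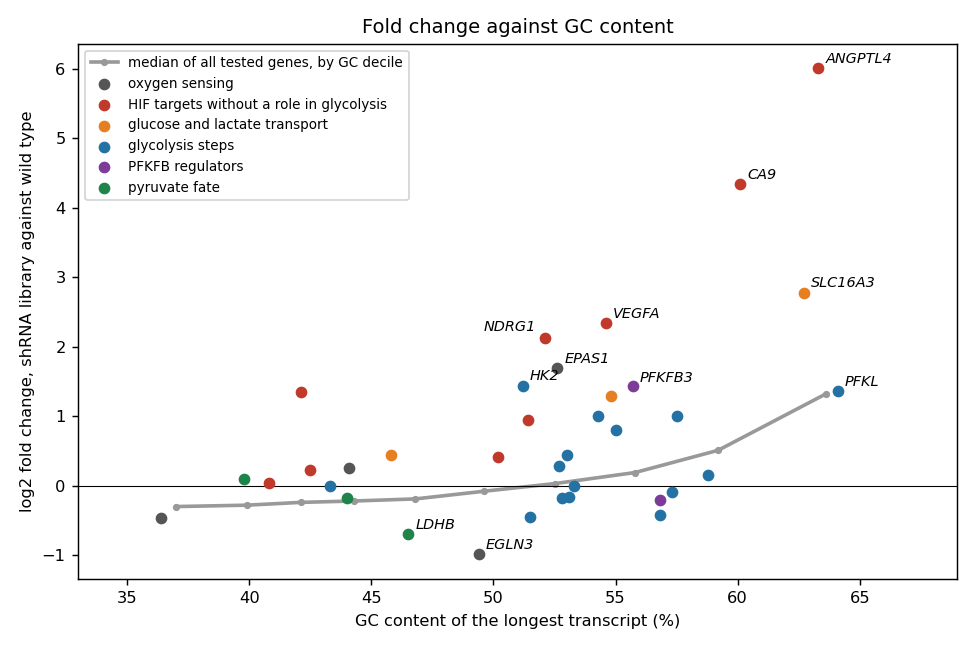
Log2 fold change as measured (the shRNA-labelled library against wild type) against the GC content of the longest transcript, for the 36 genes coloured by role group, with the median of all tested genes in each decile of GC content (grey line). VEGFA, NDRG1, EPAS1 and ANGPTL4 stand well above the grey line, while PFKL at 64.1% GC content lies level with its end.

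At the entry of the pathway, hexokinase HK1 measured 139, 126 and 130 CPM in wild type against 179 CPM in the shRNA-labelled library (log2 fold change 0.44, edgeR adjusted p = 0.16). HK2, the hypoxia-inducible hexokinase, measured 32.4, 56.9 and 64.6 CPM against 139 CPM (log2 fold change 1.44, SE 0.37, edgeR adjusted p = 0.0937). Both were above their wild-type ranges, and HK2 varied 1.99-fold among the wild-type libraries themselves. HK2 passed without wild-type library 1 (edgeR adjusted p = 0.02), its lowest. GPI, which converts glucose 6-phosphate to fructose 6-phosphate, measured 391, 295 and 371 CPM against 315 CPM, within the wild-type range.

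At the phosphofructokinase step, the main control point of the pathway, PFKP and PFKL lay above every wild-type library and PFKM below. PFKP, the platelet isoform, measured 103, 99.9 and 142 CPM in wild type against 232 CPM in the shRNA-labelled library (log2 fold change 1.01, edgeR adjusted p = 0.0723). PFKL, the liver isoform, measured 46.6, 40.3 and 101 CPM against 161 CPM (log2 fold change 1.36, SE 0.52, edgeR adjusted p = 0.187). PFKM, the muscle isoform, measured 132, 125 and 110 CPM against 89.5 CPM (log2 fold change -0.45, edgeR adjusted p = 0.208). Wild-type library 3 was the highest of its group for PFKP and PFKL and the lowest for PFKM. None passed the main test, and PFKL passed without wild-type library 3 (edgeR adjusted p = 0.0398).

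The PFKL transcript has a GC content of 64.1%, and with the trend removed PFKL had a log2 fold change of -0.16 (edgeR adjusted p = 0.756). PFKP and PFKM kept their signs, at 0.65 and -0.53. PFKP reads per PFKM read numbered 0.783, 0.803 and 1.30 in wild type against 2.59 in the shRNA-labelled library, which is 1.47 above the wild-type mean on the log2 scale (SD 0.41) and 1.19 (SD 0.32) with the trend removed. PFKM and SENP1 share exonic bases on opposite strands.

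PFKFB enzymes make and break fructose 2,6-bisphosphate, the allosteric activator of phosphofructokinase. PFKFB3 (ENSG00000170525.14), the isoform with the highest kinase activity, measured 26.9, 34.5 and 34.2 CPM in wild type against 86.3 CPM in the shRNA-labelled library. The wild-type values differed by little and the shRNA value stood well above them. PFKFB3 rose 2.71-fold (log2 fold change 1.44, SE 0.21, edgeR adjusted p = 0.0314). Its call ended with the trend removed in the joint fit (log2 fold change 1.12, edgeR adjusted p = 0.0514) and when wild-type library 2 or 3 was left out (edgeR adjusted p = 0.0574 and 0.0669). PFKFB4, a hypoxia-inducible relative, measured 11.3, 33.5 and 24.9 CPM against 20.1 CPM, within a wild-type range that itself spanned 2.96-fold.

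In the middle of the pathway the aldolases differed in level far more than in change. ALDOA measured 466, 380 and 591 CPM in wild type against 958 CPM in the shRNA-labelled library (log2 fold change 1.00, SE 0.25, edgeR adjusted p = 0.0843). ALDOC, the brain aldolase, stayed at 2.32 to 4.30 CPM in wild type against 2.62 CPM there. ALDOA gave over 99% of aldolase transcripts per length in every library, 99.3% to 99.5% in wild type and 99.8% in the shRNA-labelled library. TPI1, which interconverts the 3-carbon sugars, measured 694, 589 and 654 CPM against 609 CPM, and GAPDH, the first enzyme of the energy-yielding steps, 3335, 2513 and 2872 CPM against 3248 CPM. Both TPI1 and GAPDH lay within the wild-type range. GAPDH had a log2 fold change of 0.16 as measured and -0.35 with the trend removed, and it has 64 annotated pseudogene copies.

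Of the 3 genes of lower steps given next, 2 lay within the wild-type range and PGAM1 just below it. PGK1, which makes the first ATP of the pathway, measured 455, 477 and 421 CPM in wild type against 448 CPM in the shRNA-labelled library. PGAM1, the mutase, measured 132, 122 and 121 CPM against 111 CPM. PKM, pyruvate kinase, measured 3192, 3101 and 3656 CPM against 3288 CPM. The log2 fold changes of PGK1, PGAM1 and PKM were -0.01, -0.18 and -0.01, with SEs of 0.16, 0.17 and 0.16. PGK1 was -0.01 as measured and 0.18 with the trend removed, and PKM was 0.02 with RLE scaling, so no direction is given for either.

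ENO1, the ubiquitous enolase, measured 3545, 2985 and 3510 CPM in wild type against 4091 CPM in the shRNA-labelled library (log2 fold change 0.29, edgeR adjusted p = 0.32). ENO2, the neuronal enolase, measured 65.4, 85.5 and 90.5 CPM against 140 CPM (log2 fold change 0.80, SE 0.22, edgeR adjusted p = 0.0994). Both were above every wild-type library. Per kilobase of coding transcript, GAPDH, ENO1 and PKM were the most abundant glycolytic transcripts in wild type, at 2273 ± 322, 1878 ± 176 and 1443 ± 129 CPM per kb (SD, n = 3). GAPDH was above ENO1 in each of the 4 libraries, though the wild-type ranges of the pair overlapped (1964 to 2608 and 1675 to 1989 CPM per kb). The next gene, TPI1, followed at 442 ± 36.4 CPM per kb. ENO1, PKM and GAPDH carried 79.1%, 78.2% and 78.2% of the summed glycolytic CPM in wild-type libraries 1, 2 and 3 and 75.8% in the shRNA-labelled library.

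The genes for the fate of pyruvate included none above the wild-type range. LDHA, the lactate dehydrogenase subunit that HIF induces, measured 921, 914 and 868 CPM in wild type against 793 CPM in the shRNA-labelled library (log2 fold change -0.18, edgeR adjusted p = 0.475). LDHB, the other subunit, measured 886, 823 and 750 CPM against 505 CPM (log2 fold change -0.70, SE 0.17, edgeR adjusted p = 0.0822). Both lay below every wild-type library, LDHB by the wider margin. PDK1, the kinase that switches off pyruvate dehydrogenase and a classic HIF target, measured 23.5, 21.1 and 20.1 CPM against 23.0 CPM, within the range.

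LDHA reads per LDHB read numbered 1.04, 1.11 and 1.16 in wild type against 1.57 in the shRNA-labelled library. On the log2 scale this ratio lay 0.51 above the wild-type mean, where the wild-type SD was 0.08, and 0.54 (SD 0.10) with the trend removed. The numbers behind it show that LDHA was not higher there and that LDHB was the lower of the pair. With 3 libraries against 1 such a ratio has no replicate in the shRNA arm and was not tested.

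**Figure D4:**
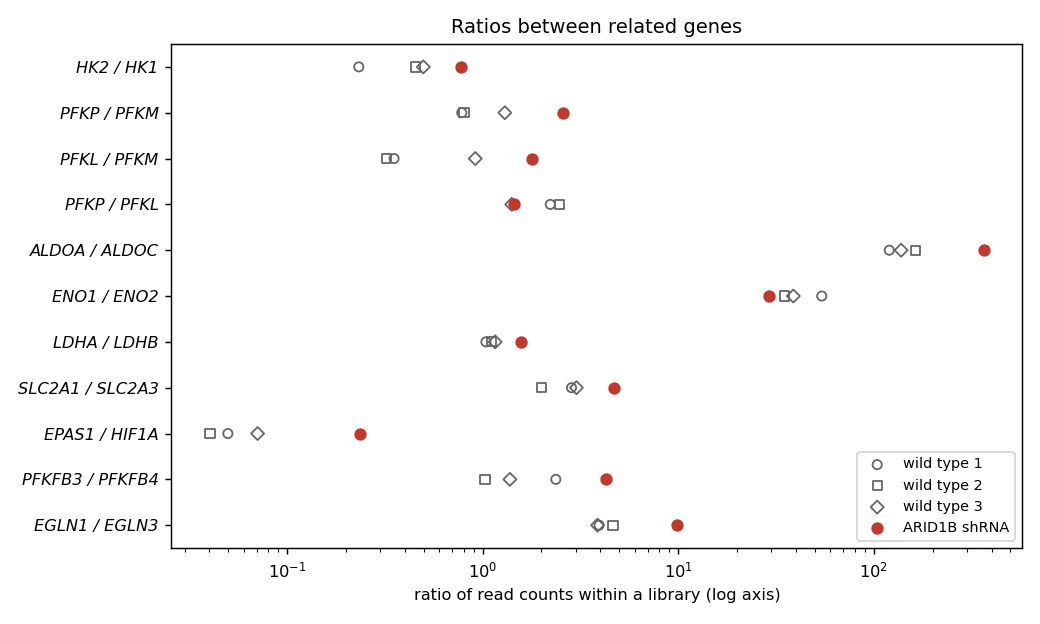
Ratio of read counts between related genes within each library, on a log axis, for 11 pairs, with the wild-type libraries as open grey symbols and the shRNA-labelled library in red. In 9 pairs the red point lies above all wild-type points, in ENO1 / ENO2 it lies below them, and in PFKP / PFKL it falls among them. No share over other pairs of genes was taken.

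Other ratios between related genes also left the wild-type range. HK2 reads per HK1 read numbered 0.233, 0.453 and 0.498 in wild type against 0.778 in the shRNA-labelled library. SLC2A1 reads per SLC2A3 read numbered 2.85, 2.00 and 3.02 against 4.70, and EGLN1 reads per EGLN3 read 3.94, 4.64 and 3.87 against 9.86. PFKFB3 reads per PFKFB4 read numbered 2.37, 1.03 and 1.38 against 4.30. Of the 11 pairs examined, 9 had a ratio above all wild-type libraries, 1 below and 1 within, and the pairs share genes. No share over other pairs of genes was taken, and above or below depends on which gene is divided by which. Of single tested genes 73.3% lay outside the wild-type range. With the trend removed the PFKL to PFKM difference went from 1.93 to 0.40 on the log2 scale (SD 0.49). That of SLC2A1 to SLC2A3 went from 0.86 to 0.50 (SD 0.20), while that of EGLN1 to EGLN3 went from 1.25 to 1.36 (SD 0.12). The differences in the EGLN1 to EGLN3 ratio (1.25 on the log2 scale, SD 0.15) and the EPAS1 to HIF1A ratio were several times the wild-type SD, while that of HK2 to HK1 (1.05, SD 0.60) was under 2 of them.

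Other genes of the same pathways were taken from 6 lists of 99 genes, of which 85 were tested. Of these, 3 were called higher and 1 lower, where 3.65% and 0.834% of all tested genes were, and their median log2 fold change was 0.01. Among 12 other oxygen-sensing genes none passed in the main edgeR test, limma-voom or DESeq2. At an unadjusted edgeR p below 0.05, 2 were higher and 1 lower, where 15.6% and 9.79% of all tested genes were. ARNT, the partner of the HIF alpha subunits, measured 75.1, 70.2 and 72.4 CPM in wild type against 48.4 CPM in the shRNA-labelled library (edgeR adjusted p = 0.121). VHL measured 50.6, 69.8 and 52.7 CPM against 69.7 CPM, within the wild-type range.

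Of 32 other HIF target genes 1 rose and 1 fell in the main test, where 3.65% and 0.834% of all tested genes did. Their median log2 fold change was 0.14. Above every wild-type library stood 13 of the 32 and below it 6, where 35.4% and 37.9% of all tested genes did. DESeq2 called 2 of them higher and 3 lower, where 9.2% and 2.88% of tested genes were. KDM4B, a histone demethylase, rose from 16.5, 12.3 and 19.3 CPM to 49.7 CPM (log2 fold change 1.63, SE 0.28, edgeR adjusted p = 0.0393). With the trend removed its value was 0.61 (edgeR adjusted p = 0.12). BHLHE41, a repressor of the circadian clock, fell from 144, 173 and 151 CPM to 67.9 CPM (log2 fold change -1.20, SE 0.20, edgeR adjusted p = 0.036). It fell by 1.21 on the log2 scale with the trend removed (edgeR adjusted p = 0.0322). Both calls ended when wild-type library 2 was left out (edgeR adjusted p = 0.0577 and 0.065), and likewise with library 3 (edgeR adjusted p = 0.0558 and 0.0763). The other 30 did not pass the main test.

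Of 19 other genes of glycolysis and glucose uptake 1 rose and 0 fell in the main test, where 3.65% and 0.834% of all tested genes did. DESeq2 called 1 higher and 2 lower, where 9.2% and 2.88% of tested genes were. The 2 lower were PFKFB2 (37.4, 28.6 and 34.2 CPM in wild type against 15.9 CPM in the shRNA-labelled library) and SLC2A12 (7.45, 2.86 and 3.78 CPM against 0.57 CPM). HKDC1, a hexokinase-like enzyme, measured 1.47, 2.16 and 2.54 CPM in wild type and rose to 14.7 CPM (log2 fold change 2.83, SE 0.36, edgeR adjusted p = 0.0262; 2.66 with the trend removed, edgeR adjusted p = 0.0284). PCK2, the mitochondrial phosphoenolpyruvate carboxykinase of gluconeogenesis, rose from 22.7, 21.6 and 34.2 CPM to 127 CPM (log2 fold change 2.28, SE 0.28, edgeR adjusted p = 0.0249; 1.40 with the trend removed, edgeR adjusted p = 0.0243). It was the single gene called among 3 tested genes of gluconeogenesis. Without wild-type library 2 neither HKDC1 nor PCK2 passed (edgeR adjusted p = 0.0565 and 0.0563), and HKDC1 also missed the threshold without library 3 (edgeR adjusted p = 0.0502).

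Around pyruvate dehydrogenase 8 of 12 genes lay below every wild-type library and 4 within the range, and none passed the main test. Over all tested genes 37.9% stood below. The 12 were genes for the complex, its kinases other than PDK1, its phosphatases and the mitochondrial pyruvate carrier. Of these 0 passed in the main edgeR test and in limma-voom, and 3 were lower in DESeq2, where 2.88% of tested genes were called lower. At an unadjusted edgeR p below 0.05, 5 were lower and 0 higher, where 9.79% and 15.6% of all tested genes were. The log2 fold changes of all 12 were negative, with a median of -0.45, where 46.8% of all tested genes had a positive one. The kinase gene PDK1, given above with the fate of pyruvate, had a log2 fold change of 0.09 and lay within the range. The median GC content of the list was 43.5%, and with the trend removed the median fold change was -0.31 and 3 were positive. The phosphatase gene PDP1 measured 128, 133 and 105 CPM in wild type against 56.6 CPM in the shRNA-labelled library (log2 fold change -1.11, edgeR adjusted p = 0.0515). The kinase gene PDK3 measured 28.3, 39.5 and 31.7 CPM against 12.5 CPM (log2 fold change -1.40, edgeR adjusted p = 0.0584). Both PDP1 and PDK3 were called lower with upper-quartile scaling (edgeR adjusted p = 0.0415 and 0.045), where 1.13% of tested genes were, and when wild-type library 1 was left out (edgeR adjusted p = 0.049 and 0.0316), where 1.65% were. PDP1 was also called lower with the stepwise trend removal (edgeR adjusted p = 0.0469), where 0.91% were, and PDK3 was not. With no filter PDP1, PDK3 and DLD were called lower, where 3.1% of genes were. Neither PDP1 nor PDK3 was called with limma-voom, with RLE scaling, after the joint trend removal or without wild-type library 2 or 3. Of 7 genes of the pentose phosphate pathway none passed in the main edgeR test or limma-voom. In DESeq2 2 were higher, where 9.2% of tested genes were. At an unadjusted edgeR p below 0.05, 3 were higher, where 15.6% of all tested genes were. The median log2 fold change of the 7 turned from 0.63 to -0.02 with the trend removed.

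**Figure D5:**
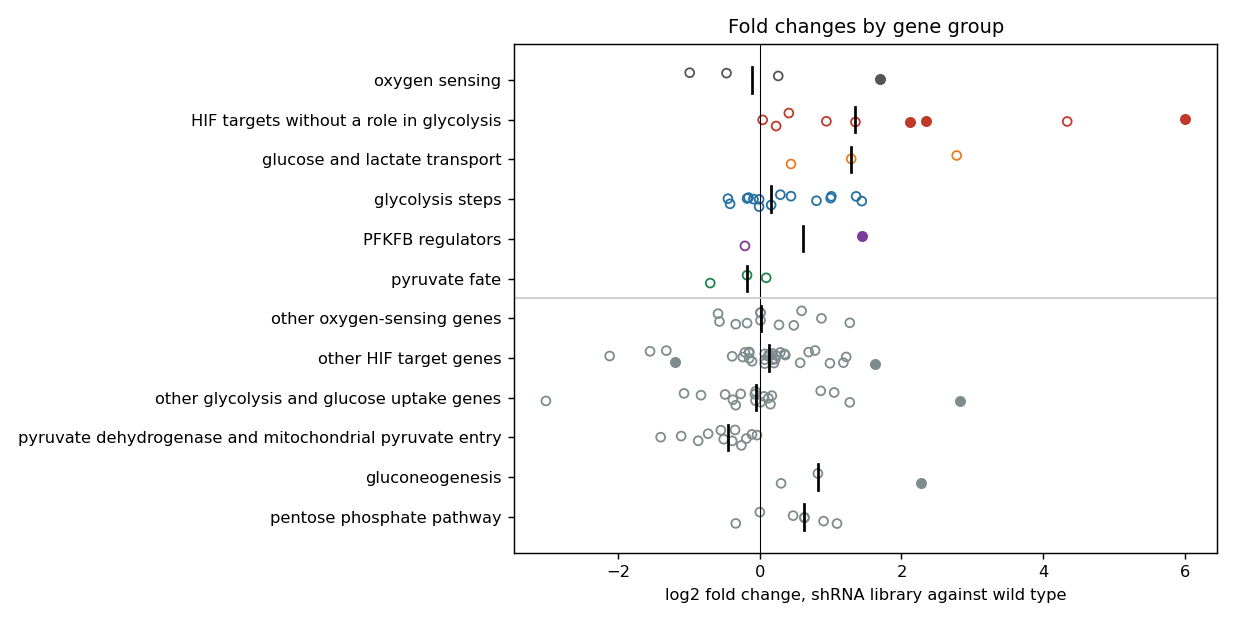
Log2 fold change as measured of each tested gene (the shRNA-labelled library against wild type) by group, with the 6 groups of the 36 genes above the grey line and the 6 lists of other pathway genes below it; filled points had an edgeR adjusted p below 0.05 and black bars mark medians. The medians are 1.35 for the HIF targets without a role in glycolysis, 0.16 for the glycolysis steps and -0.45 for the pyruvate dehydrogenase list.

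Some of these levels carry a counting uncertainty of their own. Of the 36 genes 18 share exonic bases with another gene of the GENCODE 29 basic annotation, and 17 have annotated pseudogenes that carry their symbol. Reads counted on those pseudogenes came to at most 4.19% of the parent gene's count in any library. Reads that aligned to several places, 3.53% to 3.95% of the reads in the files, were kept apart from gene counts in the deposited files.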

How the data were processed

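Per the labels' protocols, poly(A) RNA of 4 Daoy samples gave single reads of 100 nucleotides. The authors deposited raw counts of reads per gene. Tools named per the submitters' processing notes are HISAT2, HTSeq, bcl2fastq and DESeq2, with the build GRCh37 (hg19); their versions, the strand setting and the annotation were not given in the sources used here. The 5 closing lines per file, which hold no gene, were dropped; reads outside genes made up 5.27% to 7.65% of genic, ambiguous and outside reads. Symbols were matched for 51996 of 57820 identifiers (89.9%). GC content and lengths came from GENCODE 29 on GRCh38, so no coordinates of the files are given.

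The test was run in edgeR 4.0.16 (R 4.3.3): filterByExpr (minimum count 10, minimum total 15), TMM scaling, glmQLFit with robust shrinkage (the method before edgeR 4) and glmQLFTest of 1 library against 3, with 2 residual degrees of freedom, adjusted by Benjamini-Hochberg over 17024 genes at 0.05. The lone library is assumed to vary as the wild-type libraries do. An SE is the log2 fold change over the square root of F. CPM are counts over TMM-scaled library totals; levels per length use the median length of coding transcripts. Poisson intervals are exact at 95%. The GC and length trend was a loess (span 0.3) of each library over genes averaging 20 counts or more, removed through offsets. Also tried were DESeq2 1.42.0, limma-voom (limma 3.58.1), RLE scaling, upper-quartile scaling, no filter, a mean count of 50 or more, no robust shrinkage and leaving out each wild-type library; the later quasi-likelihood method and the stepwise trend removal were chosen after seeing the data. The procedure was run on simulated counts with set changes and no GC or length trend. Those counts cannot show how the calls fare under that trend. The members and lists were chosen with earlier results of these data known. Named were all members, ARID1B, related genes of members and up to 4 called genes per list and direction. Some other pathway genes were named though they did not pass the main test (ARNT, VHL, PDP1, PDK3, DLD, PFKFB2 and SLC2A12). These and the named marker genes were chosen after their values were seen.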

Additional observations from a re-analysis of the deposited data

How the results depend on the processing

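No paired analysis was possible because the labels number only the wild-type libraries. The count of all called genes was 763 in the main test, 1189, 157 and 478 without wild-type libraries 1, 2 and 3 (a range of 157 to 1189), 1789 with DESeq2, 3226 with no filter on low counts and 474 with the trend removed. Members called numbered 5, with a range of 2 to 9 when single wild-type libraries were left out, 12 with DESeq2 (all higher), 15 with no filter (13 higher and 2 lower) and 3 with the trend removed. Called genes of the other pathway lists numbered 4, 0 to 10 when single libraries were left out, 14 with DESeq2 and 23 with no filter. Of the 14 with DESeq2, 6 were higher and 8 lower. Over all genes tested, DESeq2 called 9.2% higher and 2.88% lower, and the fit with no filter 7.4% and 3.1%. The median log2 fold change of the HIF targets without a role in glycolysis was 1.35, between 1.01 and 1.77 with single libraries left out, 0.94 over genes averaging 50 counts or more, 1.57 with the trend removed and 1.59 with the stepwise removal; that of the glycolysis steps was 0.16 and turned to -0.14 and -0.04 with the joint and the stepwise removal. ARID1B was higher by 1.12 without wild-type library 1 (edgeR adjusted p = 0.026), and between 0.47 and 1.12 over the 3 libraries left out. Some genes that did not pass in either fit changed sign: P4HA1 (-0.08 with upper-quartile scaling, -0.03 to 0.14 with single libraries left out), PFKL (-0.16 and -0.04 with the joint and stepwise trend removal), GAPDH (-0.35 and -0.34 likewise), PGK1 (0.02 with RLE scaling and DESeq2, 0.18 and 0.13 with the trend removals, -0.06 to 0.05 with single libraries left out), PKM (0.02 with RLE scaling and DESeq2, -0.05 to 0.06 with single libraries left out), PFKFB4 (-0.54 to 0.16 likewise), LDHA (0.01 with the stepwise removal) and PDK1 (-0.03 with upper-quartile scaling). The causes were not tested. The shRNA arm has 1 library, and its 8792848 reads limit genes near 1 CPM such as ANKRD37.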
